A study of Homo sapiens with 7 samples.

Results

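The windows described here surround transcription start sites at which RPE1 cells made little nascent RNA. Of 9123 start-site windows listed for all 3 CFAP20KO and all 3 WT libraries, 1362 had a mean signal of at least 0.05 and below 1 over the first 3 kb after the start, averaged over the 3 WT libraries. The windows were thus chosen by these WT values, which are given as a description. The limma fit over all windows covered these bins too, and nothing is read here from its calls there. Another 3368 windows had a WT mean of at least 1 and are called stronger windows, 1328 had a trace above 0 and below 0.05, and the rest were at 0. The tables identify windows by a UCSC transcript identifier and give no gene name.

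RPE1 is an immortalised human retinal pigment epithelial line. Every line used was labelled as carrying an inducible Cas9 and as p53/puro-dKO, so by that label p53 was knocked out in the WT cells too. The groups were CFAP20KO cells (3 libraries), CFAP20KO cells expressing CFAP20-GFP, here called the rescue (1 library), and WT cells (3 libraries), all labelled for 30 min with 2 mM bromouridine before RNA carrying it was captured and sequenced (BrU-seq). CFAP20 is known as a protein of cilia, and the study asked about its part in transcription and replication. The labels do not say whether a line was 1 clone or whether replicates were separate cultures, and the p-values speak only to how far these libraries scatter. The start of CFAP20 was not analysed here, so the knockout was not checked in these values.

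Nascent RNA capture reads RNA while it is being made, introns included, so signal on the transcribed strand marks where polymerases have travelled. At an active gene the signal begins at the start site and falls off along the gene. At a weakly used start it can be small beside RNA that comes from the end of a neighbouring gene on the same strand, because polymerases run past the end of a gene before they stop. Promoters of broadly used genes are often rich in CpG dinucleotides, and promoters of genes restricted to a tissue are often poor in them.

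Signal was coverage per 200-bp bin as scaled by the authors. It took whole multiples of a step that was 0.393 in CFAP20KO replicate 1, 0.16 in CFAP20KO replicate 2, 0.18 in CFAP20KO replicate 3, 0.1 in the rescue, and 0.3, 0.0733 and 0.187 in WT replicates 1 to 3. One step is the smallest value a bin can take, and lower levels read as 0. CFAP20KO replicate 1 had the coarsest step and the fewest steps in all. In bulk libraries, fewer transcribing cells and less RNA per cell cannot be told apart. Over the first 3 kb, 255, 124 and 155 of the 1362 windows were at 0 in CFAP20KO replicates 1 to 3, 120 in the rescue, and 79, 50 and 47 in WT replicates 1 to 3. The rule required WT signal, so the WT counts of zeros cannot be read against the others. A number in the headers of the authors' splice table took 3 values, and libraries with the same number are said here to share a run, although no label or header states what the number marks. CFAP20KO replicate 1 and WT replicate 1 shared run A, the rescue and WT replicate 2 run B, and CFAP20KO replicates 2 and 3 and WT replicate 3 run C.

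To learn which genes these starts belong to, the signal pattern of each window over 6 libraries was matched to the pattern in windows around 2032 replication origins, whose hg38 positions the authors give. This placed 964 start-site windows on the genome, and 96.1% of them fell within 300 bp of a GENCODE 44 transcript start, with a median distance of 39 bp. Of 509 windows that fell at the start listed by the authors as nearest to the origin, 489 matched its gene symbol. These 509 were picked because they fell at that start, so the match compares gene names and cannot test the placement. Of the 1362 weak windows, 120 were placed and 112 lay within 300 bp of an annotated start, which gave them a gene. Of these 112 starts, 26 lay over 1000 bp inside the gene's outermost start. The 112 named windows are not a random sample. Their median WT signal over the 20 kb before the start was 0.432, against 0.160 for all 1362.

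Sequences before 4 of these starts are shown as examples of CpG-poor and CpG-rich starts whose signal is given further on. RLBP1 encodes the retinaldehyde-binding protein of the visual cycle and was the only 1 of 9 retinal pigment epithelium markers that could be placed. PLA2G4A encodes the cytosolic phospholipase that releases arachidonic acid. INAVA encodes a regulator of innate immune signalling and cell junctions. FGFR4 is a receptor for fibroblast growth factors. These genes were chosen after their values were seen. Each line gives the 250 bases before the annotated start, read from hg38 in the direction of transcription, with CpG dinucleotides in capitals. RLBP1 lies on the minus strand at chr15:89221615-89221864, PLA2G4A on the plus strand at chr1:186828699-186828948, INAVA on the plus strand at chr1:200894650-200894899, and FGFR4 on the plus strand at chr5:177086655-177086904. No annotated exon of the same strand overlapped these stretches, and the INAVA start is 1 that lies inside the gene's outermost start.
RLBP1: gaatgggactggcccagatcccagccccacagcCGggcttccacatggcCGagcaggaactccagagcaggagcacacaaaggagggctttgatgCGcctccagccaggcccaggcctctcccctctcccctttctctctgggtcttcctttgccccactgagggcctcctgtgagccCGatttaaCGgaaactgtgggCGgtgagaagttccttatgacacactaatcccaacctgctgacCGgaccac
PLA2G4A: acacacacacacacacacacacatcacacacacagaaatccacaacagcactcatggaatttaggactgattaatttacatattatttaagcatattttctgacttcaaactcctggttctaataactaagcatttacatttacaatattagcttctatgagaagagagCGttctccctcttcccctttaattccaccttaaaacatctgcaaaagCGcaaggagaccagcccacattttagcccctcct
INAVA: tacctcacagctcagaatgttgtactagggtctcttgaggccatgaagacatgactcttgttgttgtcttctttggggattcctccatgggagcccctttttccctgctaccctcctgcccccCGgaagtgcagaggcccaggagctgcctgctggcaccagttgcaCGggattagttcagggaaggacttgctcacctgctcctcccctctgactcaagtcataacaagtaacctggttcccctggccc
FGFR4: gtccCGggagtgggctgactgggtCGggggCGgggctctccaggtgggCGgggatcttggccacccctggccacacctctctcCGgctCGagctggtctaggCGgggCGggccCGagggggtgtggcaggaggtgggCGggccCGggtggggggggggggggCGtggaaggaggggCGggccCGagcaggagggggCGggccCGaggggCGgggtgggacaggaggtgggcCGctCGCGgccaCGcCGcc
The FGFR4 stretch held 22 CpG, the RLBP1 stretch 7, and the PLA2G4A and INAVA stretches 2 each.

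The placed weak starts were poor in CpG. The 250 bases before them held a median of 3 CpG (quartiles 1 and 17, n = 112), against 21 (quartiles 13.5 and 29, n = 575) before stronger starts. Starts with a trace had a median of 4 (n = 95) and silent starts a median of 3 (n = 144). Stretches were counted as CpG-rich above 50% G and C with an observed-to-expected CpG ratio above 0.6. By that measure 27.7% of weak starts were CpG-rich, against 77.0% of stronger, 14.7% of trace and 12.5% of silent starts. The kinds of gene also differed, and 40 of 112 weak starts (35.7%) belonged to long noncoding RNAs, against 6.96% of stronger starts. Trace and silent starts were closer to the weak ones, at 48.4% and 37.5%. Among protein-coding genes, 41.4% of 70 weak starts and 80.9% of 534 stronger starts were CpG-rich. The motif TATAAA on the transcribed strand, 20 to 40 bases before the start, stood before 4 weak starts (3.57%) and before 1.57% of stronger starts. It stood before 4.21% of trace and 4.86% of silent starts. On the opposite strand it stood before 0 weak and 4 stronger starts in the same stretch. These shares, and those by CpG content that follow, describe the starts that could be placed and were not tested.

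**Figure D1:**
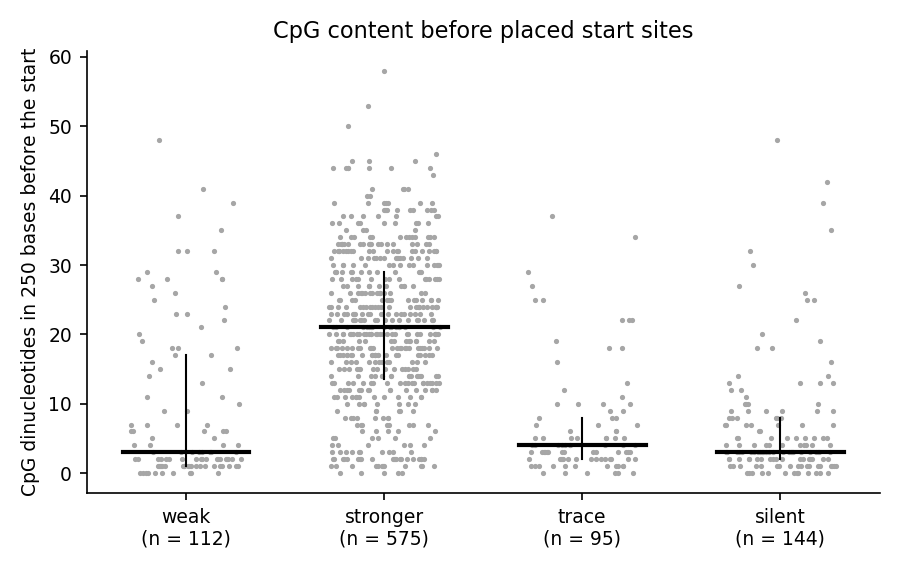
CpG dinucleotides in the 250 bases before each placed and named start (vertical axis), by class of window from WT signal over the first 3 kb. Grey points are starts, thick lines medians and thin lines the quartile range; weak starts have a median of 3 and stronger starts a median of 21.

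The 31 CpG-rich weak windows had less signal before the start than the other 81. Their median signal over the 20 kb before the start was 0.172 in CFAP20KO, 0.098 in the rescue and 0.152 in WT. In the other 81 it was 0.450 in CFAP20KO, 0.361 in the rescue and 0.448 in WT. Signal over 3 to 20 kb exceeded that before the start in 16 of 31 CpG-rich windows in CFAP20KO and 17 of 31 in WT. In the windows without that richness it did so in 32 of 81 in CFAP20KO and 31 of 81 in WT. Among stronger windows the share was 93.9% in CFAP20KO and 93.5% in WT for CpG-rich starts, and 78.8% in CFAP20KO and 78.0% in WT for the others.

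Across all 1362 windows, the signal formed a small step at the start and was also high far before it. On the mean log2(signal + 0.0498) scale, the last kb before the start averaged -2.83 in CFAP20KO, -2.72 in the rescue and -2.79 in WT. The first kb averaged -2.24 in CFAP20KO, -2.07 in the rescue and -2.13 in WT. Between 19 and 20 kb before the start the level was -2.37 in CFAP20KO, -2.27 in the rescue and -2.38 in WT, above that of the last kb in each group. Between 19 and 20 kb after the start it was -3.06 in CFAP20KO, -2.89 in the rescue and -3.09 in WT. CFAP20KO and WT libraries intermixed along the profile, and the replicates numbered 1 were the lowest of their groups beyond 3 kb after the start.

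**Figure D2:**
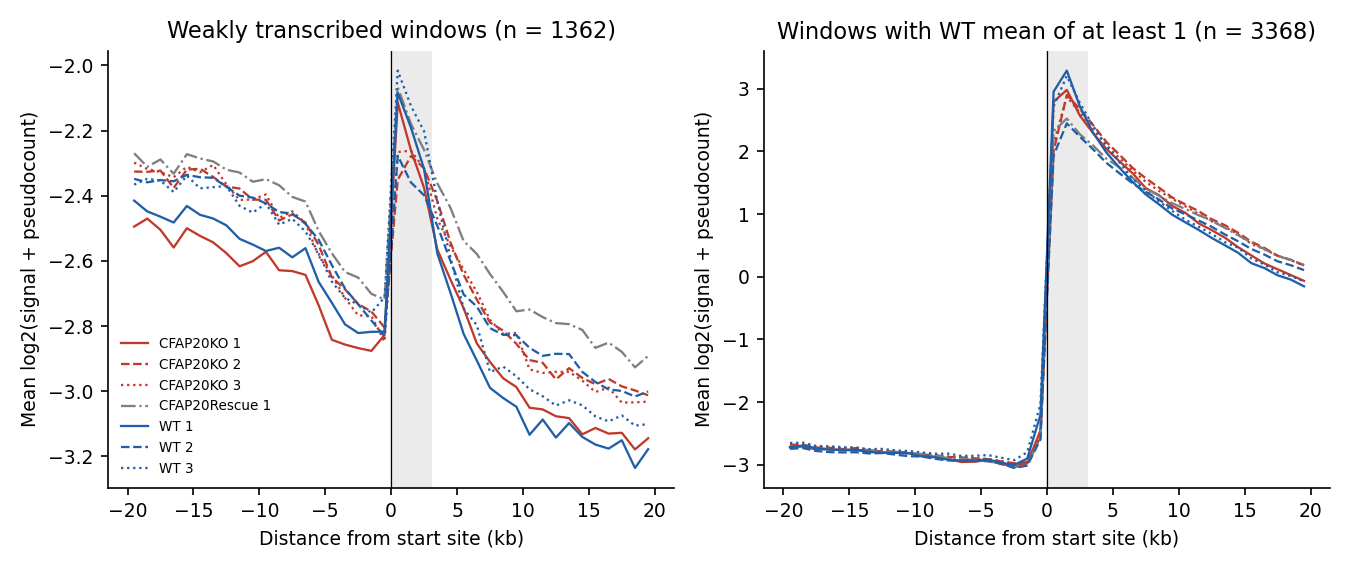
Mean log2(signal + pseudocount) per kb against distance from the start site, for 1362 weak windows (left) and 3368 stronger windows (right). Lines are libraries (CFAP20KO red, rescue grey, WT blue) and the grey band marks the first 3 kb, where WT values chose the windows; the weak windows show a small step on a high flank before the start, and the stronger ones a tall peak.

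The highest signal often lay before the start. In CFAP20KO, 547 of 1362 windows (40.2%) had more signal over the 20 kb before the start than over the first 3 kb or over 3 to 20 kb. In the rescue the share was 41.1%, and in WT it was 545 windows (40.01%). Trace windows had a higher share, of 50.3% in CFAP20KO, 47.3% in the rescue and 44.9% in WT. In stronger windows the share was 6.89% in CFAP20KO, 7.45% in the rescue and 6.65% in WT. The classes were set by WT signal over the first 3 kb, which enters this comparison. The order of the classes is therefore partly built in, and nothing is read from it. The region before the start exceeded the first 3 kb by more than 5 times in 23.1% of weak windows in CFAP20KO, 22.8% in the rescue and 19.2% in WT. The first 3 kb were highest in 41.6% in CFAP20KO, 39.7% in the rescue and 44.1% in WT. The rule fixed a lower limit over the first 3 kb for WT alone. All these shares of weak windows compare with the first 3 kb, which could fall under that limit in CFAP20KO and the rescue. Differences in them between WT and the other groups are therefore partly built in, and nothing is read from those differences.

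**Figure D3:**
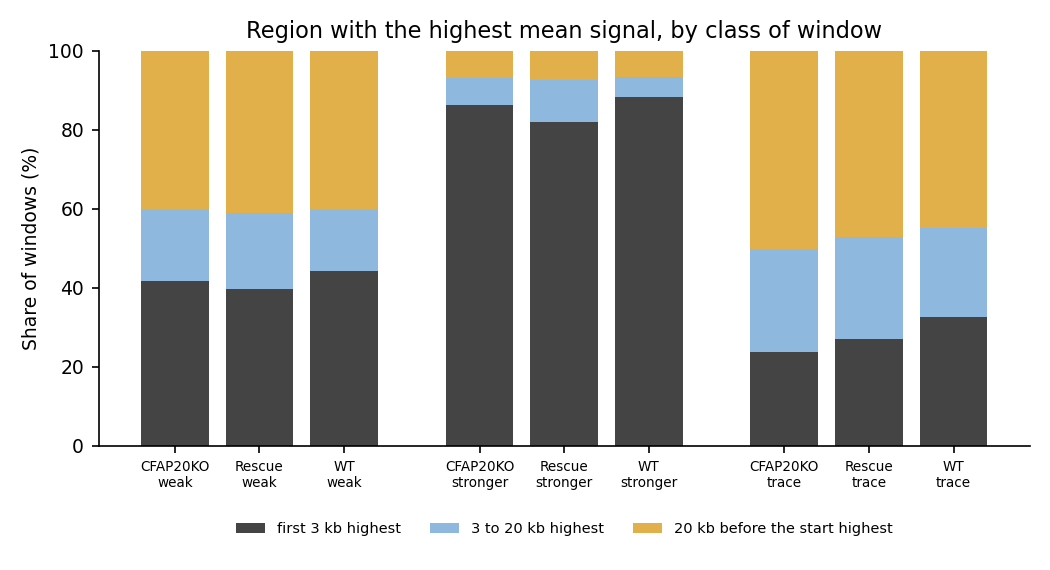
Share of windows (vertical axis, %) whose highest mean signal lay over the first 3 kb, over 3 to 20 kb or over the 20 kb before the start, by class of window and group. About the same share of weak windows, 40.2% in CFAP20KO and 40.01% in WT, had the highest signal before the start, against 6.89% of stronger windows in CFAP20KO and 6.65% in WT. The classes were set by WT signal over the first 3 kb, so their order is partly built in, as are differences between WT and the other groups.

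Signal before the start went with the position of neighbouring genes in the 112 named windows. In 38 of them another gene on the same strand ended within 20 kb before the start, and in 6 the start lay inside another gene. The 38 had a median signal before the start of 1.59 ± 0.0107 in CFAP20KO (SD, n = 3), 1.48 in the rescue and 1.42 ± 0.107 in WT (SD, n = 3). In the 68 windows with neither, the median was 0.0894 ± 0.0264 in CFAP20KO, 0.0705 in the rescue and 0.101 ± 0.0383 in WT (SD, n = 3 each). Signal over 3 to 20 kb exceeded that before the start in 4 of the 38 in CFAP20KO and 5 of the 38 in WT. It did so in 44 of the 68 in CFAP20KO and 43 of the 68 in WT.

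Some weak starts lay shortly after the end of another gene on the same strand and had most of their signal before the start. BCAR4, a long noncoding RNA known from breast cancer cells, starts 5005 bp after the end of RSL1D1. Over the 20 kb before the BCAR4 start, CFAP20KO replicates had 30.8, 29.4 and 23.4, the rescue 22.5, and WT replicates 24.8, 20.1 and 23.8. Over the first 3 kb, CFAP20KO replicates had 0, 0.0107 and 0.144, the rescue 0.0667, and WT replicates 0.18, 0.044 and 0. The signal stood before the start, and the first 3 kb after it held almost none, in every library. AMPD1, the AMP deaminase of skeletal muscle, starts 8996 bp after the end of NRAS and had 3.89, 9.17 and 8.71 before its start in CFAP20KO, 6.36 in the rescue, and 4.76, 7.31 and 7.34 in WT. FGF8 encodes a growth factor of embryonic patterning, and the start matched here, inside the gene's outermost one, lies 5425 bp after the end of NPM3. It had 11.8, 12.2 and 12.96 before that start in CFAP20KO, 12.1 in the rescue, and 11.3, 11.2 and 11.3 in WT. F2, which encodes prothrombin, starts 13284 bp after the end of ZNF408 and averaged 6.72 ± 3.60 before its start in CFAP20KO and 7.32 ± 4.06 in WT (SD, n = 3 each). The groups overlapped for BCAR4, AMPD1 and F2. For FGF8 all 3 CFAP20KO values lay above WT, by 0.13 on the log2 scale (SE 0.38, limma adjusted p = 0.988).

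Other weak windows had little near the start and much more beyond it. MAP2K2, the kinase MEK2, averaged 0.356 ± 0.214 over the first 3 kb in CFAP20KO and 0.415 ± 0.222 in WT. Its average over 3 to 20 kb was 7.34 ± 3.003 in CFAP20KO and 8.04 ± 4.67 in WT (SD, n = 3 each). AURKC, an Aurora kinase of germ cells, starts 8294 bp after the end of ZNF264 and averaged 2.995 ± 0.987 over 3 to 20 kb in CFAP20KO and 5.98 ± 2.08 in WT (SD, n = 3 each), with overlapping groups. The stronger start of ZNF805 lies 5137 bp after the end of AURKC on the same strand, so that stretch also reads ZNF805.

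The median levels of the 1362 windows were then compared between groups over libraries, outside the bins that chose them. Over 3 to 20 kb the median was -2.72, -2.74 and -2.76 on the log2 scale in CFAP20KO replicates 1 to 3, -2.71 in the rescue, and -2.86, -2.88 and -2.77 in WT replicates 1 to 3. Each CFAP20KO value lay above each WT value, by 0.0931 on average, and the two-sided exact permutation test gave p = 0.1, the smallest that 3 against 3 libraries allow (0.5 after adjustment over 5 values). Scaling every library to the median of the stronger windows turned the difference to -0.0516. Within run A the difference was 0.135 and within run C 0.0191. Relative to the stronger windows of the same library, the weak windows averaged -4.54 ± 0.1003 in CFAP20KO and -4.42 ± 0.0225 in WT (SD, n = 3 each), a difference of -0.125 (exact permutation p = 0.2, adjusted 0.5), which was -0.0348 within run A and -0.177 within run C.

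Over all libraries, the remaining values differed between groups by less than 1 SD within either, while the values within runs were at times larger. Over the 20 kb before the start the median was -2.501 ± 0.0959 in CFAP20KO and -2.44 ± 0.174 in WT (SD, n = 3 each; exact permutation p = 0.7, adjusted 0.875). The difference was -0.0647 over all libraries, -0.173 within run A and -0.184 within run C. Over 20 to 100 kb it was -2.98 ± 0.0405 in CFAP20KO and -2.96 ± 0.163 in WT (SD, n = 3 each; exact permutation p = 1). There the difference was -0.0186 over all libraries, -0.0646 within run A and -0.158 within run C. The share of windows with more signal over 3 to 20 kb than before the start was 44.8 ± 2.08% in CFAP20KO and 45.7 ± 1.47% in WT (SD, n = 3 each; exact permutation p = 0.7, adjusted 0.875). In percentage points the difference was -2.203 within run A and 0.808 within run C.

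Few single windows differed between CFAP20KO and WT. The test was limma on log2(signal + 0.0498), fitted over every start-site window that passed a minimum mean of 0.0498, with Benjamini-Hochberg adjustment at 0.05. Over 3 to 20 kb, 930 of the 1362 weak windows passed the minimum, and 7 were called, all of them higher in CFAP20KO. Over all 4797 windows tested, 0.5% were called, 18 higher and 6 lower. Among all windows tested the median change was 0.16, and among the weak ones it was 0.10. The change was positive in 56.6% of weak and 64.9% of all windows tested, and in 42.5% of weak and 46.2% of all with each library centred on its own median. The rule set an upper limit on WT signal at the start, so the direction of the 7 calls is not independent of the choice of windows. Only uc002nqd.2 and uc002mtp.4 stayed past the threshold without each of the 6 libraries in turn, and without CFAP20KO replicate 3, WT replicate 1 or WT replicate 2 they were the only weak windows called. Without CFAP20KO replicate 2 the count was 3, without CFAP20KO replicate 1 it was 5, and without WT replicate 3 it was 7, of which 5 were higher and 2 lower. The windows uc002mtp.4, uc002mtr.2 and uc002lfu.1 had a WT mean under the minimum and were tested only through their CFAP20KO signal, so a difference was built into their choice. With the replicate number as a block, 67 weak windows were called, 38 higher and 29 lower, and 252 of all 4797. With the run as a covariate there were 204 weak windows, 97 higher and 107 lower, and 1059 of all 4797. In that fit WT replicate 2, the only fitted library of run B, does not bear on the difference between groups. All 3 CFAP20KO values lay above all 3 WT values in 134 of the 930 weak windows, where the share over all windows was 14.2%, and below them in 78, where it was 5.86%.

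The highest CFAP20KO signal among the 7 was in uc002nqd.2. Over 3 to 20 kb it had 2.81, 1.81 and 1.83 in CFAP20KO, 1.93 in the rescue, and 0.0812, 0.0742 and 0.121 in WT. Every CFAP20KO value and the rescue stood far above every WT value, and the log2 change was 3.94 (SE 0.37, limma adjusted p = 0.00333). It was also, through its CFAP20KO signal alone, the only weak window of 809 tested that was called over 20 to 100 kb, where 0.266% of all 5258 windows were, and it lost that call without WT replicate 1 (limma adjusted p = 0.0674). There it had 0.239, 0.265 and 0.274 in CFAP20KO, 0.254 in the rescue, and 0, 0.00788 and 0.007 in WT, a log2 change of 2.498 (SE 0.23, limma adjusted p = 0.00419). Its first 3 kb had 22.1, 8.36 and 6.55 in CFAP20KO, 6.69 in the rescue, and 0.26, 0.23 and 0.996 in WT. Before the start no library had more than 0.027.

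The neighbouring windows uc002mtp.4 and uc002mtr.2 overlap, the start of uc002mtr.2 lying 32 kb before that of uc002mtp.4 on the same strand, so they share signal. The window uc002mtp.4 had 1.55, 1.15 and 0.985 in CFAP20KO, 0.760 in the rescue, and 0.0141, 0.00949 and 0.0461 in WT over 3 to 20 kb. Its log2 change was 4.14 (SE 0.37, limma adjusted p = 0.00333). Over the same stretch uc002mtr.2 had 0.342, 0.228 and 0.227 in CFAP20KO, 0.444 in the rescue, and 0.0141, 0 and 0.0198 in WT, a log2 change of 2.36 (SE 0.32, limma adjusted p = 0.0194). In both windows the rescue stood with CFAP20KO and clear of WT.

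In the other 4 called windows the rescue lay above, within or below the CFAP20KO range, and above WT in each. The window uc003liy.4 had 1.48, 1.59 and 1.64 in CFAP20KO, 1.85 in the rescue, and 0.176, 0.207 and 0.433 in WT (log2 change 2.42, SE 0.40, limma adjusted p = 0.045). The window uc003xux.3 had 0.569, 1.02 and 1.18 in CFAP20KO, 0.905 in the rescue, and 0.0671, 0.129 and 0.169 in WT (log2 change 2.49, SE 0.42, limma adjusted p = 0.0492). In these the rescue lay within or above the CFAP20KO range. In uc002faa.6 the values were 1.24, 0.525 and 0.582 in CFAP20KO, 0.247 in the rescue, and 0.0847, 0.0492 and 0.0439 in WT (log2 change 2.85, SE 0.42, limma adjusted p = 0.0236). In uc002lfu.1 they were 0.130, 0.122 and 0.220 in CFAP20KO, 0.0859 in the rescue, and 0, 0 and 0.00659 in WT (log2 change 1.97, SE 0.31, limma adjusted p = 0.0321). In these last the rescue lay between the groups. None of the 7 windows could be placed, so no gene is named for them.

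**Figure D4:**
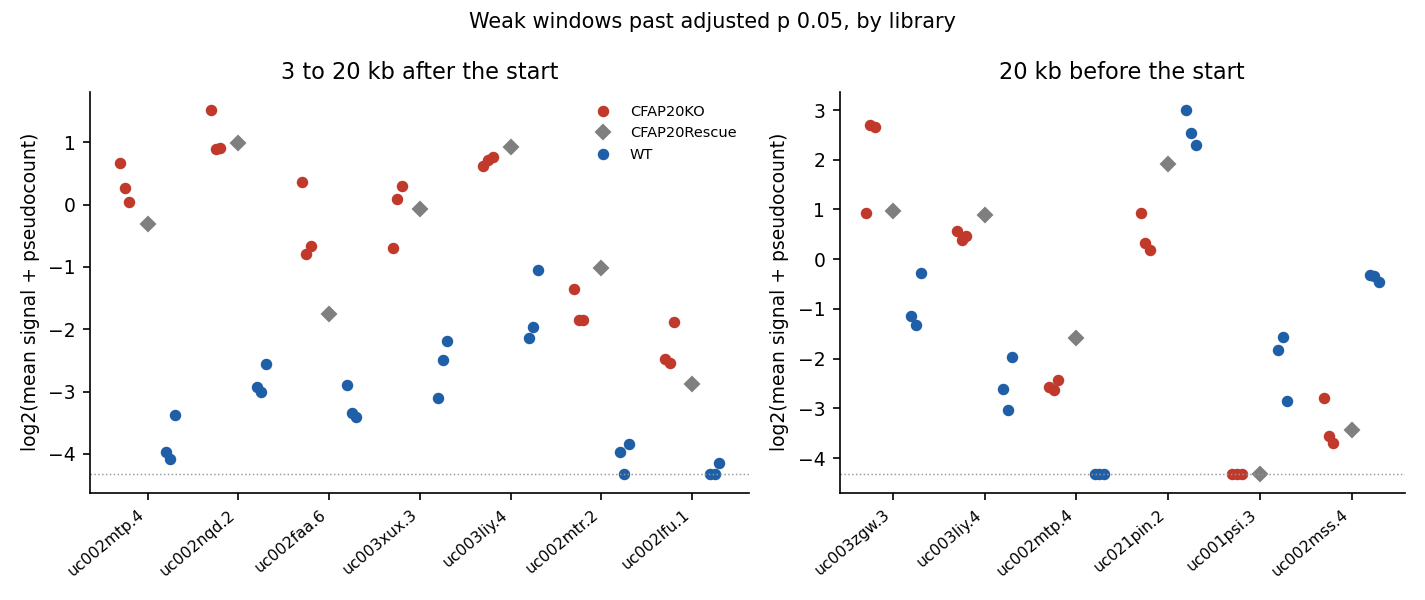
log2(mean signal + pseudocount) per library for weak windows past adjusted p 0.05 over 3 to 20 kb (left) and over the 20 kb before the start (right). Red points are CFAP20KO, grey diamonds the rescue, blue points WT, and the dotted line marks a signal of 0; no CFAP20KO value overlaps a WT value in these windows.

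Before the start, 6 of 834 weak windows tested were called, 3 higher and 3 lower in CFAP20KO, where 0.603% of all 3482 windows were. The window uc003zgw.3 had 1.86, 6.41 and 6.27 there in CFAP20KO, 1.91 in the rescue, and 0.402, 0.351 and 0.777 in WT (log2 change 3.01, SE 0.54, limma adjusted p = 0.0367). It was placed on the plus strand of chromosome 9 at position 977001 of hg38, 346 bp from an annotated start of DMRT3 and 7911 bp after the end of DMRT1. That distance is past the limit of 300 bp, so the window itself was given no gene. Its first 3 kb overlapped between groups, at 0, 0.117 and 0.060 in CFAP20KO, 0.0133 in the rescue, and 0.28, 0.0196 and 0.0124 in WT. The groups stood apart before the start and overlapped after it, over 3 to 20 kb as well. The windows uc003liy.4 and uc002mtp.4, called over 3 to 20 kb as well, were the others that were higher. In uc003liy.4 the values were 1.42, 1.25 and 1.33 in CFAP20KO, 1.81 in the rescue, and 0.114, 0.0726 and 0.205 in WT (log2 change 3.01, SE 0.43, limma adjusted p = 0.00993). Its CFAP20KO mean was 1.34 before the start and 1.57 over 3 to 20 kb, against 0.131 and 0.272 in WT. Its calls on either side of the start may therefore not be separate, which was not tested. The values before the start of the remaining window are given next. In uc002mtp.4 they were 0.118, 0.112 and 0.135 in CFAP20KO and 0.283 in the rescue, and the window was listed at 0 in every WT library, so it was tested only through its CFAP20KO signal. The stretch before its start lies after the start of uc002mtr.2, 32 kb upstream. It partly covers the same bins as the uc002mtr.2 call over 3 to 20 kb, so these calls are not separate. Each of the 6 lost its call without at least 1 of the libraries, and without CFAP20KO replicate 2, CFAP20KO replicate 3 or WT replicate 1 a single weak window was called.

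The 3 windows that were lower before the start also averaged less over the first 3 kb. The rule required signal there in WT alone, so nothing is read from that. In uc002mss.4 the 20 kb before the start had 0.0944, 0.0352 and 0.0270 in CFAP20KO, 0.0430 in the rescue, and 0.750, 0.747 and 0.674 in WT (log2 change -2.98, SE 0.42, limma adjusted p = 0.00905). Its first 3 kb were at 0 in every CFAP20KO library, at 0.00667 in the rescue, and at 0.400, 0.484 and 0.361 in WT. From 20 to 100 kb the window carried 5.39, 3.49 and 3.29 in CFAP20KO, 4.25 in the rescue, and 2.57, 3.35 and 2.497 in WT, where a stronger start lies 21.8 kb downstream. In uc001psi.3 the 20 kb before the start were at 0 in every CFAP20KO library and in the rescue, and at 0.231, 0.289 and 0.0896 in WT, so it was tested only through its WT signal. In uc021pin.2 they had 1.84, 1.20 and 1.08 in CFAP20KO, 3.72 in the rescue, and 7.93, 5.79 and 4.83 in WT (log2 change -2.14, SE 0.41, limma adjusted p = 0.0427). The rescue stood with CFAP20KO in uc002mss.4 and uc001psi.3, and between the groups in uc021pin.2.

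Over the first 3 kb, 2 of 1254 weak windows tested passed the same threshold, uc002nqd.2 and uc002mss.4, and 0.294% of all 4768 windows did. The WT values of these bins chose the windows, so nothing is read from that count. In CFAP20KO the 3-library mean over the first 3 kb was at least 1 in 99 of the 1362 windows, within the limits of the rule in 1027, above 0 and below 0.05 in 181 and at 0 in 55. In the single rescue library, 132 were at least 1, 923 within the limits, 187 below and 120 at 0.

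The largest falls over 3 to 20 kb among windows whose groups did not overlap did not pass the threshold. In uc003syc.4 the values were 0, 0.0264 and 0.0127 in CFAP20KO, 0.212 in the rescue, and 0.240, 0.310 and 0.0922 in WT (log2 change -1.99, SE 0.41, limma adjusted p = 0.108). Its CFAP20KO mean was under the minimum, so uc003syc.4 was tested only through its WT signal and a fall was built into its choice. In uc001vkm.3 they were 0.0463, 0.177 and 0.210 in CFAP20KO, 0.965 in the rescue, and 0.579, 1.35 and 0.397 in WT (log2 change -2.04, SE 0.55, limma adjusted p = 0.202). In both the rescue stood within the WT range. In uc021ppj.1 and uc062xgo.1 the log2 changes were -2.24 (SE 0.64, limma adjusted p = 0.23) and -1.90 (SE 0.40, limma adjusted p = 0.108). There the rescue, at 0.185 and 0.226, stood below every WT value. With the replicate block all 4 passed the threshold.

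The rescue stood nearer to CFAP20KO than to WT in most of the windows whose groups did not overlap. Over 3 to 20 kb it did so in 100 of the 134 weak windows with CFAP20KO above WT (74.6%), against 62.4% over all such windows, and in 51 of the 78 with CFAP20KO below WT (65.4%), against 68.0%. Before the start, 67 of the 834 weak windows had all CFAP20KO values above WT, where the share over all windows was 7.61%, and 77 had them below, where it was 8.13%. There the rescue stood nearer to CFAP20KO in 80.6% of the 67 and 70.1% of the 77, against 62.6% and 72.1% over all such windows. The rescue is 1 library, and it shared its run with WT replicate 2.

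None of the windows with a gene name passed the limma threshold, with 80 tested over 3 to 20 kb, 86 over 20 to 100 kb and 83 before the start. Their smallest limma adjusted p was 0.122, and 8, 10 and 5 of them had an unadjusted p under 0.05, against 542 of 4797, 452 of 5258 and 315 of 3482 windows over all. Of the 80 tested over 3 to 20 kb, 4 had all CFAP20KO values above WT, where the share over all windows was 14.2%. In 7 they lay below, where it was 5.86%. The following genes were picked after their values were seen, for what they are known to do. RLBP1 had 0.0787, 0 and 0 over the first 3 kb in CFAP20KO, 0 in the rescue, and 0.400, 0.328 and 0.274 in WT, where the WT values are among those that chose the window. The groups overlapped over 3 to 20 kb, at 0.0648, 0.0113 and 0.0254 in CFAP20KO, 0.0129 in the rescue, and 0.159, 0.0198 and 0.0571 in WT (log2 change -0.52, SE 0.45, limma adjusted p = 0.78). The start matched for ATF3, a transcription factor of the stress response, had 0.131, 0.107 and 0.180 over the first 3 kb in CFAP20KO, 0.160 in the rescue, and 0.520, 0.196 and 0.722 in WT, under the same limit. That start follows chr1:212565084-212565333 on the plus strand. Other starts of ATF3 were not examined, so these values do not describe the whole gene.

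Some other genes had higher averages in CFAP20KO, likewise short of the threshold. They do not stand for the named windows as a set. Over 3 to 20 kb, all CFAP20KO values lay above WT in 4 named windows and below WT in 7. PTGIS, prostacyclin synthase, had 1.12, 1.21 and 1.18 over 3 to 20 kb in CFAP20KO, 1.18 in the rescue, and 0.498, 0.146 and 0.797 in WT. The CFAP20KO values lay close together above a wide WT range (log2 change 1.44, SE 0.54, limma adjusted p = 0.363). Over the same stretch PLA2G4A had 0.102, 0.337 and 0.360 in CFAP20KO, 0.462 in the rescue, and 0.113, 0.0871 and 0.0417 in WT. Its groups overlapped through CFAP20KO replicate 1 (log2 change 1.19, SE 0.46, limma adjusted p = 0.371). INAVA there had 4.71, 1.69 and 1.60 in CFAP20KO, 4.33 in the rescue, and 2.04, 0.534 and 0.839 in WT, also overlapping, with both replicates numbered 1 the highest of their groups (log2 change 1.22, SE 0.59, limma adjusted p = 0.501). DNAAF4, a factor that assembles the dyneins of motile cilia, there had 0.824, 0.540 and 0.491 in CFAP20KO, 0.394 in the rescue, and 0.254, 0.320 and 0.437 in WT, without overlap (log2 change 0.78, SE 0.38, limma adjusted p = 0.509). The CpG-rich FGFR4 start had 0.787, 0.181 and 0.120 over the first 3 kb in CFAP20KO, 0.127 in the rescue, and 0.0800, 0.0293 and 0.112 in WT, again with WT values that chose the window, and CFAP20KO replicate 1 far above the rest.

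**Figure D5:**
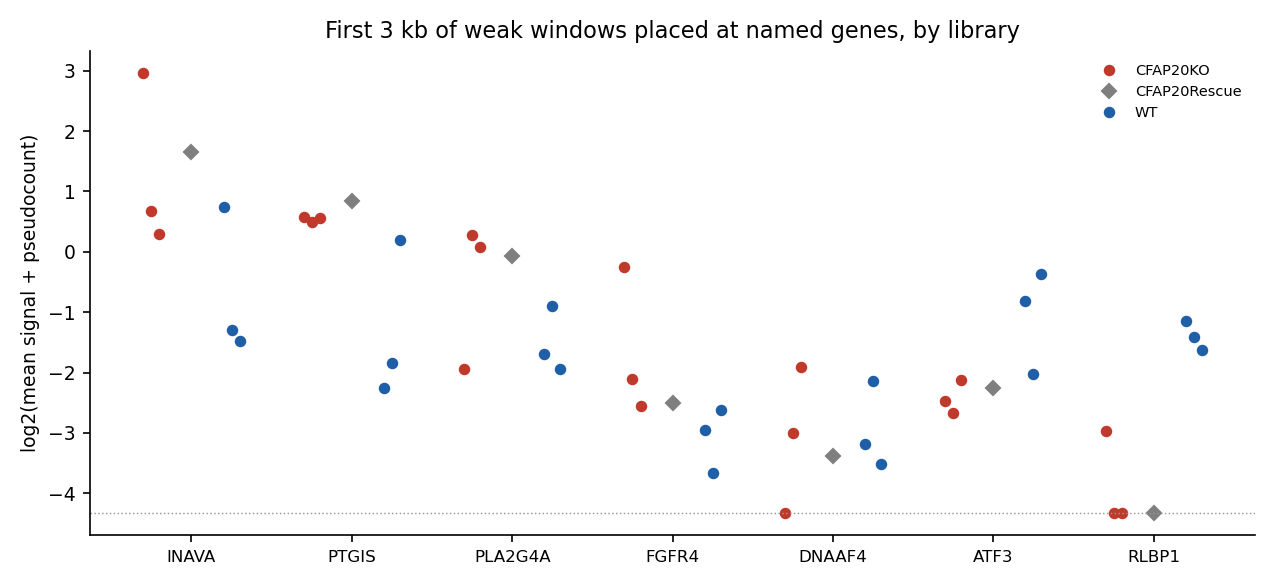
log2(mean signal + pseudocount) over the first 3 kb per library for 7 weak windows placed at named genes. Red points are CFAP20KO, grey diamonds the rescue, blue points WT, and the dotted line marks a signal of 0; WT values here belong to the values that chose the windows, and the groups overlap for INAVA, PLA2G4A and DNAAF4.

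At the edges of the rule, uc061ioe.1 and uc284poq.1 lay just inside the lower limit and uc001ltj.5 and uc061gxt.1 just outside it, all with a WT mean that rounds to 0.050. At the upper limit uc002udf.3 and uc059hkj.1 had WT means of 0.999 and 0.998, and uc022bsa.1 and uc064nvv.1, just outside, had 1.003 each. Only 719 of the 1362 windows lay within the limits in each WT library on its own. Among the steadiest over WT was uc057myh.1, with 0.341, 0.171 and 0.324 in CFAP20KO, 0.320 in the rescue, and 0.400, 0.386 and 0.398 in WT. The signal elsewhere in a weak window could be large. Before its start uc002orv.3 had 169.6, 80.6 and 72.7 in CFAP20KO, 71.7 in the rescue, and 205, 53.7 and 113 in WT. Over 3 to 20 kb uc010dus.4 had 20.2, 17.3 and 15.96 in CFAP20KO, 12.1 in the rescue, and 26.2, 6.98 and 24.3 in WT. In both windows WT replicate 1 was the highest and WT replicate 2 the lowest of all libraries.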

How the data were processed

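BrU-seq signal was analysed for 3 CFAP20KO libraries, 1 rescue library and 3 WT libraries of RPE1 cells. The submitters' processing notes name hg38 and list STAR 2.7.7a and HOMER 4.8.2, SAMtools 1.11 beside R 4.0.5, and, for quality and trimming, FastQC 0.11.9 and Trim Galore 0.6.5. The deposited tables hold signal (coverage) of the transcribed strand in 200-bp bins from 100 kb before to 100 kb after each start or origin centre, scaled by the authors in a way not given in the sources used here. Steps summed over the start-site tables from 30183211 in CFAP20KO replicate 1 to 116896654 in WT replicate 2. One fragment covers several bins, so steps are not reads and no count model or counting interval was used.

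Bins were averaged per region, and limma 3.58.1 with trend and robust options (R 4.3.3, statmod 1.5.0) compared CFAP20KO with WT on log2(signal + 0.0498). The pseudocount, also the minimum mean, was the value that 10% of positive first-3-kb signals fell below, and the log2 scale understates changes of low windows. Two-sided exact permutation tests served for library values. The fit was also run on simulated data with independent scatter in each library. The real libraries deviated together in part, so that run cannot test the fit on these data, and nothing is read from it. Start windows were placed by correlating their signal, less an 11-bin running mean, with that of origin windows over 6 libraries, at a correlation above 0.8. Windows named in the text were, by rule, those past the threshold, the largest rises and falls over 3 to 20 kb with groups that do not overlap, those at the edges, and those highest or steadiest in WT. The windows, lists and tests were chosen with earlier results of these data known.

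Whether replicate numbers pair the libraries was checked over 3 to 20 kb. Same-numbered libraries deviated from their groups with correlations of 0.77, 0.48 and 0.14 for pairs 1 to 3, all above 0.1, so a replicate block was used there as an alternative. Swapped numbers gave slightly higher values, 0.52 for CFAP20KO replicate 3 with WT replicate 2 and 0.16 for CFAP20KO replicate 2 with WT replicate 3. The data therefore do not single out the numbering of pairs 2 and 3. The pairing could be checked only in the data, since the labels name no shared culture or day. The libraries of pairs 1 and 3, unlike those of pair 2, carry the same number in the splice table, whose meaning is not stated. Other alternatives were the pseudocount, the minimum, centring, the run, averaging CFAP20KO replicates 2 and 3, and leaving out each library. The splice table was not analysed here, and some placed starts are not reported here.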

Additional observations from a re-analysis of the deposited data

How the results depend on the processing

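Counts of called windows moved with the model and with the scale. In the order first 3 kb, 3 to 20 kb, 20 to 100 kb and before the start, the replicate block called 30, 252, 127 and 142 of all windows and 9, 67, 32 and 45 weak ones. The run covariate called 786, 1059, 854 and 848 of all windows and 89, 204, 170 and 200 weak ones, and with libraries centred as well, a choice made after seeing the data, 718, 935, 822 and 972 and 106, 191, 164 and 262. The direction of these calls depended on centring. Before the start, 187 of all windows were higher and 661 lower without it, and 584 higher and 388 lower with it. Among weak windows these were 58 higher and 142 lower without it, and 176 higher and 86 lower with it. Averaging CFAP20KO replicates 2 and 3 called 2, 11, 5 and 8 of all windows, and 0, 3 and 2 weak ones over the first 3 kb, 3 to 20 kb and before the start. Centring called 30 windows over the first 3 kb and 40 before the start, and 9, 4, 2 and 10 weak ones in the 4 regions. Of all windows, centring called 15 higher and 7 lower over 3 to 20 kb, and 9 higher and 9 lower over 20 to 100 kb. It moved the median change over 3 to 20 kb of all windows to -0.04, against 0.16 without it. Doubling the pseudocount called 8 windows over 20 to 100 kb. Without each library in turn the counts ranged over 2 to 8, 8 to 23, 3 to 12 and 6 to 57 for all windows, and 0 to 1, 2 to 7, 0 to 2 and 1 to 15 for weak ones. Before the start the 57 and the 15 came without WT replicate 2. The cause was not tested. For the first 3 kb, 20 to 100 kb and before the start the replicate numbers did not meet the limit for pairs, with correlations of 0.59, 0.33 and 0.057, 0.82, 0.59 and -0.037, and 0.70, 0.42 and 0.031.

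Small library values turned sign. Scaled to the stronger windows, the median over 3 to 20 kb differed by -0.0516. Among windows within the limits in each WT library, the median over 20 to 100 kb differed by 0.0573. Without a library in turn the difference ranged from -0.0998 to 0.0629 over 20 to 100 kb (0.00477 without CFAP20KO replicate 1 and 0.0629 without WT replicate 3), from -0.152 to 0.0222 before the start (0.0222 without WT replicate 3), and from -1.60 to 0.269 percentage points for the share with more signal after the start (0.269 without CFAP20KO replicate 1). Over 3 to 20 kb it ranged from 0.0721 to 0.125. The 20 window and region results recomputed for windows given by identifier kept their direction in the settings run. With no minimum, 4 weak windows were higher and 3 lower over 3 to 20 kb, against 23 higher and 7 lower among all 9123. Of the 7 weak windows called with the minimum, only uc002nqd.2 and uc002mtp.4 stayed called. With 3 libraries against 2, calls before the start were lost by uc003zgw.3, uc001psi.3 and uc021pin.2 without most single libraries, by uc002mss.4 without CFAP20KO replicate 2 or 3, by uc002mtp.4 without CFAP20KO replicate 2 or WT replicate 1 (without CFAP20KO replicate 1 or 3 it fell under the minimum and was not tested), and by uc003liy.4 without CFAP20KO replicate 1 or WT replicate 1. Centring put uc002lfu.1, uc003liy.4 and uc003xux.3 just above the threshold over 3 to 20 kb, at limma adjusted p of 0.0533, 0.0512 and 0.0533. The share uses no pseudocount, so pseudocount settings were not run for it. The step of each library limits what can be seen at the lowest signals.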
